A study of Mus musculus with 3 samples.

Results

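Exosomes are vesicles that form by inward budding of the endosome membrane and are set free when the resulting multivesicular body fuses with the plasma membrane. The ESCRT complexes sort cargo and bend the membrane, ALIX and syntenin offer a parallel route, the VPS4 ATPases take the ESCRT-III filaments apart, and the RAB27 GTPases dock the multivesicular body at the cell surface. The 10 genes described here code for this machinery, namely *Hgs* (the ESCRT-0 subunit HRS), *Tsg101* (ESCRT-I), *Pdcd6ip* (ALIX), *Sdcbp* (syntenin-1), *Chmp4b* (ESCRT-III), *Vps4a* and *Vps4b*, *Rab27a* and *Rab27b*, and *Flot1* (flotillin-1, a lipid raft protein found on exosomes). They were taken by gene name, with no limit on their signal, and are 10 of 22911 genes that the array probes could be named for, read by 18 of 32994 named probes.

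The mRNA levels were compared among 3 mouse tumor lines. Colon26 is the parental line, from a colon adenocarcinoma, and LuM1 and NM11 descend from it and are labelled high-metastatic and low-metastatic. Each is labelled BALB/c and female, and they shared 1 culture medium, RPMI1640 to which 10% fetal bovine serum, amphotericin B, streptomycin and penicillin had been added. The labels name no transgene or other agent for any line. RNA was taken after 3 days of culture, and 0.1 µg of it was labelled with Cy3 and hybridized to 1 single-colour array per line, so there is no replicate, no test was run, and a difference between lines cannot be told apart from one between single cultures. The number of arrays limits the precision. Signals were scaled so that the 75th percentile of every array was 585.1, and 49.9%, 53.8% and 52.5% of probes were well above background, by the scanner software's flag, in Colon26, LuM1 and NM11 cells. The error given after ± is that of the scanner software, close to 10.0% of a bright signal, and covers technical error only. In the bulk RNA of a culture, fewer cells of a type and less RNA per cell cannot be told apart.

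The label of an epithelial tumor was only partly met by the markers. Of 8 epithelial markers, 3 were well above background in Colon26, 4 in LuM1 and 3 in NM11 cells, and *Cdh1* (E-cadherin), *Krt18*, *Krt19* and *Vil1* (villin) were so on no array. The summed epithelial signals were 1154, 441 and 387 in the order Colon26, LuM1, NM11. They rest mostly on *Krt20* (651, 54.5 and 157) and *Cdx2* (443, 232 and 167). *Krt8* (28.9, 108 and 37.1) was lowest in Colon26 cells, and *Epcam* was well above background in LuM1 cells only. In LuM1 over Colon26, 1 epithelial marker was at least 2-fold higher and 1 lower. Fibroblast markers were well above background for 5, 6 and 6 of 7 genes, with summed signals of 66331, 35905 and 105811. These sums add probes of unlike brightness and rest mostly on *Col1a2* (59896 in Colon26, 49.6 in LuM1 and 85275 in NM11 cells) and *Dcn* (6.07, 27503 and 9599), and 3 fibroblast markers were at least 2-fold higher and 2 lower in LuM1 over Colon26. Leukocyte and myeloid markers were so for 4, 5 and 4 of 7 genes, with summed signals of 6537, 13334 and 5808, while *Ptprc* (CD45) was not well above background on any array. The higher sum of LuM1 cells rests mostly on *Cd68* (172 in Colon26, 5251 in LuM1 and 299 in NM11 cells) and *Itgam* (5027, 6818 and 4251). *Csf1r* (682, 691 and 675) was nearly level, and *Cd3e* (628, 509 and 553) was lowest in LuM1 cells. Of 5 endothelial markers 1 was well above background on each array, and the summed signals were 74.1, 73.7 and 100.9. They rest mostly on that marker, *Pecam1* (51.3, 53.0 and 78.3). The part of these differences in the results below was not tested.

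Of the 10 genes, 8 (80.0%) passed the flag for a signal well above background on each of the 3 arrays, and 53.5% of all named genes did so. The 8 were *Hgs*, *Tsg101*, *Pdcd6ip*, *Sdcbp*, *Chmp4b*, *Vps4a*, *Vps4b* and *Flot1*. *Rab27b* was so in NM11 cells alone, and *Rab27a* in no line. The sequences upstream of 3 of these genes are shown, those of *Pdcd6ip* and *Hgs* because they lay below both other lines in LuM1 cells by more than 2 times the scanner error, and that of *Rab27a* because its mRNA was not well above background. Each holds the 250 bases before a start site of the gene, from RefSeq on GRCm38.p6, with every CG dinucleotide in capitals. They lie at chr9:113708260-113708509 on the minus strand, chr11:120467385-120467634 on the plus strand and chr9:73044560-73044809 on the plus strand.
Pdcd6ip: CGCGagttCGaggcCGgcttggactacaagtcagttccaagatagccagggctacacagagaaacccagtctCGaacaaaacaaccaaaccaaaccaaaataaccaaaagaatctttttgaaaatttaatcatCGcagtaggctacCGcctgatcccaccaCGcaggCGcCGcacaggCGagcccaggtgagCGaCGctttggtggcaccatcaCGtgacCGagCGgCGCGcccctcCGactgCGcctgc
Hgs: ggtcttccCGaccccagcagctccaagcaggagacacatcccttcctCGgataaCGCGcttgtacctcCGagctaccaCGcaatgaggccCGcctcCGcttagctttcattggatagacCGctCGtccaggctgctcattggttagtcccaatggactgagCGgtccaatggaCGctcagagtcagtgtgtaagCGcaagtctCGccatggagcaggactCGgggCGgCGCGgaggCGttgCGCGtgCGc
Rab27a: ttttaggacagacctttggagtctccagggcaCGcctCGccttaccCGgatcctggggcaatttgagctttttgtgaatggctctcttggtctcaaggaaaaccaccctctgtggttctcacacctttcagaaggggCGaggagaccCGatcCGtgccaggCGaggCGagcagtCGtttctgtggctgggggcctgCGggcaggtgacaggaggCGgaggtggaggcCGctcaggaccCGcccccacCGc
The *Pdcd6ip* stretch holds 20 CG dinucleotides, the *Hgs* stretch 22 and the *Rab27a* stretch 14. Among 32851 such stretches in the table the median was 6, and 17.9%, 14.8% and 29.4% held at least as many as those of *Pdcd6ip*, *Hgs* and *Rab27a*. A second *Rab27a* start in the table had 5, and the *Tsg101* stretch, not shown, had 30. Upstream sequence was read for 7 of the 10 genes, with 1 chromosome left out beforehand. The E-box CACGTG, which reads the same on both strands and contains 1 of the CG dinucleotides counted, occurs 1 time in the *Pdcd6ip* stretch, 1 time before the second *Rab27a* start, in neither the *Hgs* nor the *Rab27a* stretch shown, and in 6.02% of all stretches.

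By their brightest probes, the 8 genes measured in every line differed by less than 2-fold between each pair of lines. *Rab27a* had no ratio, and the lower bounds for *Rab27b* leave differences above 2-fold possible. A dimmer *Pdcd6ip* probe passed 2-fold in LuM1 over NM11. The 2-fold limit was met upward by 0 and downward by 0 of 8 genes with a ratio in LuM1 over Colon26 cells, whereas 13.1% of 14182 genes with a ratio were higher and 11.8% were lower. In LuM1 over NM11 cells it was met by 0 of 9 genes in either direction, with 11.1% of 14411 genes higher and 8.5% lower. In NM11 over Colon26 cells it was again met by 0 of 9 genes, with 8.34% of 13832 genes higher and 7.89% lower. With 8 or 9 genes, counts of 0 cannot be set apart from these shares.

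**Figure D1:**
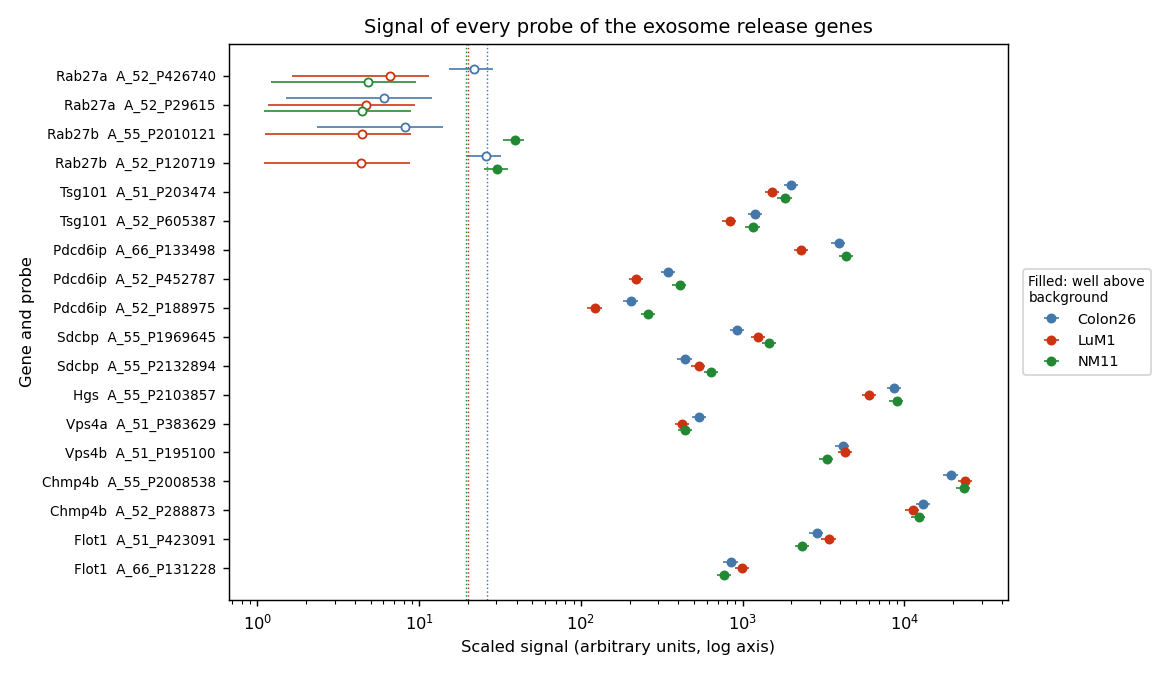
Scaled signal (log axis) of the 18 probes of the 10 genes in Colon26, LuM1 and NM11 cells, with the scanner error as bars, shortened at the lower end for the dimmest spots. Open circles are not well above background, and the dotted lines give the lowest signal that was so on the array of that colour. Signals of different probes are not comparable with each other. The *Rab27a* and *Rab27b* points lie below the dotted line of their colour, except those of *Rab27b* in NM11 cells. Each *Pdcd6ip* probe and the *Hgs* probe is lowest in LuM1 cells.

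Among the genes of cargo sorting, *Hgs*, whose protein recognizes ubiquitinated cargo on the endosome, had a signal of 8634 ± 863 in Colon26, 6075 ± 607 in LuM1 and 8927 ± 893 in NM11 cells. The level in LuM1 cells was thus the lowest, and the other lines lay within the scanner error of each other. The log2 ratio was -0.51 over Colon26 cells and -0.56 over NM11 cells, each with a scanner error of 0.20. This rests on 1 probe (A_55_P2103857, RefSeq NM_001159328). The ratio over Colon26 cells shrank to -0.27 with quantile normalization and to -0.06 in the authors' processed values. The ratio over NM11 cells shrank to -0.29 with quantile normalization, to -0.23 with E1A and to -0.14 in the authors' processed values, and turned to 0.03 when scaled to *Hprt*.

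*Tsg101*, which links ESCRT-0 to the later complexes, was read by 2 probes. The brighter one (A_51_P203474, NM_021884) gave 1992 ± 199 in Colon26, 1521 ± 152 in LuM1 and 1822 ± 182 in NM11 cells, and the dimmer one (A_52_P605387) 1190 ± 119, 830 ± 83.1 and 1155 ± 116. Both probes were lowest in LuM1 cells. For the brighter probe the log2 ratios of LuM1 over Colon26 and over NM11 cells were -0.39 and -0.26, and for the dimmer one -0.52 and -0.48. The difference of the brighter probe from Colon26 cells exceeded the scanner error of 0.20 but not 2 times that error, and the ratio turned to 0.06 in the authors' processed values. The ratio over NM11 cells turned to 0.33 when scaled to *Hprt*, to 0.07 with the E1A spike-in controls and to 0.15 in the authors' processed values.

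*Pdcd6ip* had the widest range of the 8 genes. ALIX, its product, binds syntenin and ESCRT-III and recruits the scission machinery. The brightest of its 3 probes (A_66_P133498, NM_001164677) had a signal of 3911 ± 391 in Colon26, 2295 ± 230 in LuM1 and 4358 ± 436 in NM11 cells. A further probe (A_52_P452787, NM_011052) gave 347 ± 35.2, 219 ± 22.4 and 407 ± 40.9 in the same order, and the dimmest (A_52_P188975) 203 ± 21.1, 122 ± 13.0 and 261 ± 26.4. All 3 probes were thus lowest in LuM1 cells and highest in NM11 cells.

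By the brightest probe the *Pdcd6ip* level of LuM1 cells was 1.70-fold below that of Colon26 cells, a log2 ratio of -0.77, and the probes lay between -0.77 and -0.66. Against NM11 cells it was 1.90-fold lower, a log2 ratio of -0.92, with probes between -1.09 and -0.89. The dimmest probe passed 2-fold there, at 2.13-fold. These differences exceeded the scanner error of 0.20 by more than 3 times and kept their direction under all 12 other settings of scaling, background correction, detection and probe choice, with values from -0.77 to -0.32 over Colon26 cells and from -0.97 to -0.34 over NM11 cells. The smallest of these, in the authors' processed values over Colon26 cells and with *Hprt* over NM11 cells, lay below 2 times the scanner error. Between NM11 and Colon26 cells the brightest probe differed by 0.16 on the log2 scale, within the scanner error, and the others by 0.23 and 0.36, beyond that error but below 2 times it. Scaling to *Hprt* turned the value of the brightest probe to -0.33, and scaling to E1A turned it to -0.17.

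*Sdcbp*, whose product joins syndecans to ALIX, ran in another order than *Pdcd6ip*. Its brighter probe (A_55_P1969645, NM_001098227) gave 926 ± 92.8 in Colon26, 1243 ± 124 in LuM1 and 1457 ± 146 in NM11 cells. The dimmer one (A_55_P2132894, NM_016807) gave 438 ± 44.1, 535 ± 53.6 and 639 ± 64.0. Both probes were lowest in Colon26 cells and highest in NM11 cells.

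The log2 ratio of *Sdcbp* was 0.43 in LuM1 over Colon26 cells and 0.65 in NM11 over Colon26 cells, and both values exceeded 2 times the scanner error of 0.20. The dimmer probe gave 0.29 and 0.54. The first value went down to 0.37 after normexp and to 0.36 with the mean over probes, and the second to 0.33 with E1A and 0.17 with *Hprt*, all below 2 times the error. LuM1 lay below NM11 cells by a log2 ratio of -0.23, slightly beyond the scanner error, and this turned to 0.36 when scaled to *Hprt*, to 0.10 with E1A and to 0.18 in the authors' processed values. Thus the genes of ALIX and its partner syntenin differed in opposite directions between LuM1 and Colon26 cells, by 1.70-fold lower and 1.34-fold higher.

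*Chmp4b*, the main filament-forming subunit of ESCRT-III, had the smallest range of the 8 genes, 0.30 on the log2 scale. The brighter probe (A_55_P2008538, NM_029362) gave 19358 ± 1936 in Colon26, 23837 ± 2384 in LuM1 and 23212 ± 2321 in NM11 cells. The other (A_52_P288873) gave 13065 ± 1307, 11247 ± 1125 and 12232 ± 1223. The probes thus placed Colon26 cells at opposite ends, with log2 ratios of LuM1 over Colon26 of 0.30 and -0.22, and no direction can be given for this gene.

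The VPS4 ATPases were read by 1 probe each. *Vps4a* (A_51_P383629, NM_126165) had signals of 540 ± 54.3 in Colon26, 422 ± 42.4 in LuM1 and 443 ± 44.4 in NM11 cells. Colon26 cells were highest, and LuM1 and NM11 cells lay within the scanner error of each other (log2 ratio -0.07). *Vps4b* (A_51_P195100, NM_009190) gave 4154 ± 415, 4312 ± 431 and 3308 ± 331, so that NM11 cells were lowest and Colon26 and LuM1 cells lay within the error (log2 ratio 0.05). The log2 ratio of LuM1 over Colon26 for *Vps4a* was -0.36, which turned to 0.09 in the authors' processed values. For *Vps4b* the log2 ratio of LuM1 over NM11 was 0.38, up to 0.97 when scaled to *Hprt*.

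*Flot1* was the gene most clearly higher in LuM1 than in NM11 cells. Its brighter probe (A_51_P423091, NM_008027) gave 2869 ± 287 in Colon26, 3407 ± 341 in LuM1 and 2339 ± 234 in NM11 cells. The dimmer one (A_66_P131228) gave 845 ± 84.8, 992 ± 99.4 and 768 ± 76.9. Both placed LuM1 cells highest and NM11 cells lowest. The log2 ratios of LuM1 over NM11 were 0.54 and 0.37, and those over Colon26 were 0.25 and 0.23, near the scanner error of 0.20. When scaled to *Hprt*, the brighter probe reached 1.13 over NM11 cells and so passed 2-fold.

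**Figure D2:**
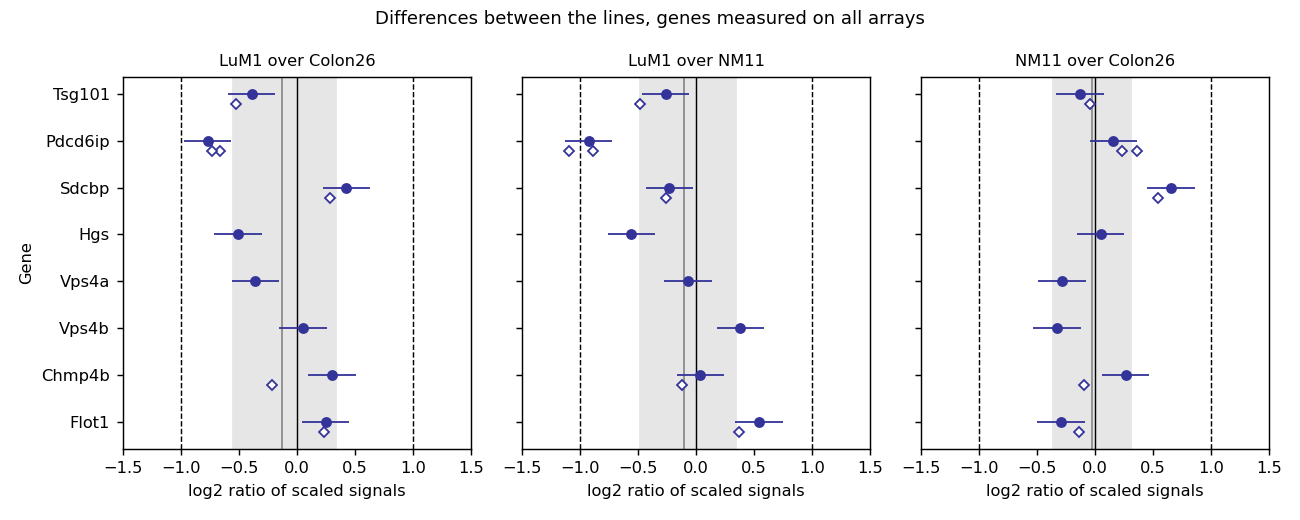
Log2 ratio of scaled signals for the 8 genes that passed the background flag on every array, in the 3 comparisons of lines. Filled points are the brightest probe with its scanner error, open diamonds the other probes, the grey band and line the quartiles and median of all named genes measured in that comparison, and dashed lines 2-fold. *Pdcd6ip* lies lowest in both comparisons of LuM1 cells, at -0.77 and -0.92, and the *Chmp4b* probes fall on both sides of 0 in LuM1 over Colon26.

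The RAB27 GTPases could hardly be measured. Neither *Rab27a* probe (both NM_023635) was well above background in any line. The brighter one (A_52_P426740) gave 21.8 ± 6.65 in Colon26, 6.57 ± 4.96 in LuM1 and 4.85 ± 4.66 in NM11 cells, and the other (A_52_P29615) 6.03 ± 6.05, 4.67 ± 4.68 and 4.41 ± 4.43. The dimmest probes to pass the flag had signals of 26.4 in Colon26, 20.1 in LuM1 and 19.6 in NM11 cells, so no ratio is given. The brighter spot was significantly above background in Colon26 cells, by the software's weaker flag. With that flag as the limit, *Rab27a* would count as more than 2-fold lower in LuM1 and in NM11 than in Colon26 cells, on 1 of 2 probes.

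*Rab27b* was well above background in NM11 cells by both probes, at signals of 38.9 ± 5.70 (A_55_P2010121, NM_001082553) and 30.4 ± 5.12 (A_52_P120719, NM_030554). In LuM1 cells the probes gave 4.44 ± 4.46 and 4.38 ± 4.40, and in Colon26 cells 8.22 ± 5.87 and 25.9 ± 6.18, none of them well above background. Against these limits NM11 cells exceeded LuM1 cells at least 1.93-fold by the first probe and at least 1.51-fold by the second. Over Colon26 cells the bounds were 1.47-fold and 1.15-fold. The bounds leave out the scanner error, and by the second probe NM11 and Colon26 cells lay within that error of each other. Both genes are needed for docking in other cells. At these signals the bounds of *Rab27b* do not give the size of a difference, and *Rab27a* has no bound. Around the spot of the probe A_52_P120719, 25 of the 100 nearest spots were significantly above background in Colon26 cells only, against 3.79% of the array, and around the brighter *Rab27a* spot 0 of 100 were. The part of this in the Colon26 signals was not tested.

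Over the 8 measured genes, by their brightest probes, LuM1 cells had the highest level for 3 and the lowest for 4. NM11 cells had the highest for 3 and the lowest for 2, and Colon26 cells each for 2. These orders and the splits below include differences within the scanner error, such as *Vps4b* in LuM1 over Colon26, and *Chmp4b*, whose probes disagreed. Over all 12249 genes measured on 3 arrays, LuM1 cells were highest for 29.1% and lowest for 45.7%. The median log2 ratio of the 8 genes in LuM1 over Colon26 was -0.15, beside -0.13 for all measured genes, with 4 genes higher and 4 lower. In LuM1 over NM11 it was -0.15, beside -0.11 for all, with 3 higher and 5 lower, and in NM11 over Colon26 -0.04, beside -0.02, with 4 higher and 4 lower.

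These splits moved with the scaling. In the authors' processed values, which shift the median of all genes by 0.45 in LuM1 over Colon26 and by 0.41 in LuM1 over NM11, 6 of 8 genes were higher in LuM1 cells in either comparison. Scaling to *Hprt* shifted the median of LuM1 over NM11 by 0.59 and made 7 of 8 higher, and made 7 of 8 lower in NM11 over Colon26, where it shifted the median by -0.49. The E1A spike-in controls gave 6 of 8 higher in LuM1 over NM11 at a shift of 0.33 and 7 of 8 lower in NM11 over Colon26 at a shift of -0.33. Without scaling, the shift was 0.11 over Colon26 and 0.18 over NM11 cells, where 4 of 8 were then higher. *Pdcd6ip* remained lower in LuM1 cells under each of these.

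A smaller limit was 2 times the scanner error, applied to the brightest probe of each gene. By it, *Pdcd6ip* and *Hgs* were lower in LuM1 than in Colon26 cells and *Sdcbp* was higher. The background was 31.8% of 12397 measured genes lower and 21.6% higher. Against NM11 cells *Pdcd6ip* and *Hgs* were lower and *Flot1* was higher, beside 28.2% lower and 21.1% higher among all. In NM11 over Colon26 cells *Sdcbp* was higher and 0 of 8 were lower, beside 19.1% higher and 21.3% lower. These counts of 2 and 1 of 8 lie near the background shares. They would change with other probes. The dimmer *Tsg101* probe was lower in LuM1 cells beyond this limit, at 2.55 times its error over Colon26 and 2.34 times over NM11 cells. The dimmer *Sdcbp* probe in LuM1 over Colon26 cells, at 1.40 times its error, fell short, while the other *Pdcd6ip* probes passed in LuM1 over either line. Against the same limit, *Hgs* over Colon26 cells was lost with *Hprt* (-0.41), without scaling (-0.40), in the authors' processed values and after quantile normalization, and over NM11 cells with these and with E1A. *Pdcd6ip* was lost over Colon26 cells in the authors' processed values (-0.32) and over NM11 cells with *Hprt* (-0.34). *Sdcbp* was lost as given above, while *Flot1* over NM11 cells stayed between 0.46 and 1.13 under the 12 settings. The dimmer *Flot1* probe alone, at 0.37 over NM11 cells or 1.81 times its error, missed the limit.

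The range of a gene over the 3 lines, the highest minus the lowest log2 signal, was 0.30 for *Chmp4b*, 0.36 for *Vps4a*, 0.38 for *Vps4b* and 0.39 for *Tsg101*. It was 0.54 for *Flot1*, 0.56 for *Hgs*, 0.65 for *Sdcbp* and 0.92 for *Pdcd6ip*. The median was 0.47, beside 0.66 over all 12249 genes, and 72.9% of these had a range under 1. The 2 sets were not matched for brightness. The 8 genes had signals of at least 422, whereas all genes include dimmer ones, for which the scanner error is larger. *Pdcd6ip* alone lay above the median of all genes, where 69.0% of genes had a smaller range. The 5 genes with several measured probes gave the same sign in 12 of 15 gene-by-comparison cases, and the other 3 were those of *Chmp4b*. The span between probes was at most 0.52, with a median of 0.16.

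**Figure D3:**
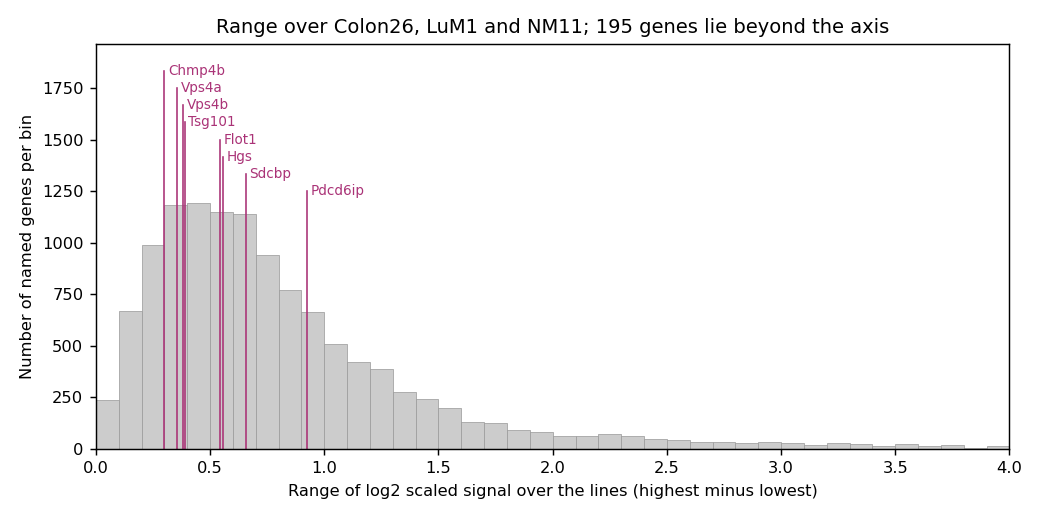
Histogram of the range of log2 scaled signal over Colon26, LuM1 and NM11 cells for 12249 named genes that passed the background flag on every array, in bins of 0.1, with lines at the 8 exosome release genes. All but *Pdcd6ip* (0.92) fall at or below 0.65, and the median of all genes was 0.66.

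Among the 12248 other genes measured on 3 arrays, the log2 ratios most like those of *Pdcd6ip* (LuM1 over Colon26 and NM11 over Colon26) were those of *Ccdc6*, *Mars2* and *Scamp4*, at distances of 0.023, 0.027 and 0.030 on the log2 scale. With 3 arrays such likeness is common, and 414 genes lay within the scanner error of both *Pdcd6ip* ratios.

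Outside these 10 genes, 69 further genes of vesicle biogenesis and secretion were read, and 58 passed the background flag on every array. In LuM1 over Colon26 cells, 5 of 60 with a ratio were at least 2-fold higher and 4 were lower. In LuM1 over NM11 cells, 8 of 60 were higher and 1 was lower, and in NM11 over Colon26 cells 0 of 59 were higher and 5 were lower. These are 8.33% and 6.67%, 13.3% and 1.67%, and 0% and 8.47% of the genes with a ratio, beside 13.1% and 11.8%, 11.1% and 8.5%, and 8.34% and 7.89% among all genes in the same order. In the authors' processed values the counts in LuM1 over Colon26 were 8 higher and 2 lower, and in LuM1 over NM11 13 were higher.

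Of the 10 other ESCRT-0 and ESCRT-I genes, 0 passed 2-fold in LuM1 over Colon26 cells. *Vps37d*, an ESCRT-I subunit, had signals of 1441 ± 144 in Colon26, 1256 ± 126 in LuM1 and 363 ± 36.6 in NM11 cells, and was 3.46-fold higher in LuM1 than in NM11 cells. The 3 ESCRT-II genes had log2 ratios of LuM1 over Colon26 of -0.34 (*Snf8*), -0.96 (*Vps25*) and -0.94 (*Vps36*), and 0 of 3 passed 2-fold. The choice to give them one by one was made after their values were seen. In ESCRT-III, *Chmp1b* had signals of 1039 ± 104, 1256 ± 126 and 518 ± 51.9 in Colon26, LuM1 and NM11 cells, and was 2.43-fold higher in LuM1 than in NM11 cells. *Chmp2b*, also singled out after its value was seen, had a log2 ratio of LuM1 over Colon26 of -1.20, and 8 of 9 measured genes of that list lay within 2-fold there. In the authors' processed values *Chmp2b* no longer passed 2-fold.

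Among the partners of VPS4 and ALIX, *Sdc3* (syndecan-3, a proteoglycan of the family that binds syntenin) was well above background in LuM1 cells only, at 341 ± 34.4 against 6.11 in Colon26 and 12.3 in NM11 cells. It was at least 12.9-fold higher than in Colon26 and at least 17.4-fold higher than in NM11 cells, on 1 probe. The log2 values of 3.69 and 4.12 went down to 2.32 and 2.36 at the lowest over the other settings. *Sdc4*, named after its value was seen, had a log2 ratio of LuM1 over Colon26 of 1.32, and of 0.42 over NM11.

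Of the 11 effectors and regulators of RAB27, 7 were not well above background on any array, among them the synaptotagmin-like genes *Sytl2* and *Sytl4*. *Unc13d* (Munc13-4, which primes secretory vesicles for fusion) had a signal of 143 ± 14.9 in LuM1 cells, 41.8 ± 7.08 in Colon26 and 34.1 ± 5.38 in NM11 cells. It was 3.41-fold and 4.18-fold higher in LuM1 cells, although the normexp background correction lowered the log2 ratio over Colon26 cells from 1.77 to 0.83, below 2-fold.

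*Rab31*, an endosomal GTPase, was higher in LuM1 cells by both of its probes. The brighter one gave 4332 ± 433 in LuM1, 1544 ± 154 in Colon26 and 2018 ± 202 in NM11 cells, 2.81-fold and 2.15-fold higher in LuM1 cells. The other gave 2.73-fold and 2.02-fold. Among the SNAREs, *Vamp8* (endobrevin, a SNARE of late endosomes) had 2865 ± 287 in LuM1, 1416 ± 142 in Colon26 and 1337 ± 134 in NM11 cells, 2.02-fold and 2.14-fold higher in LuM1 cells. *Stx1a* (syntaxin 1A) had 262 ± 26.9 in Colon26, 307 ± 31.0 in LuM1 and 123 ± 13.1 in NM11 cells, lowest in NM11 cells. After normexp, *Vamp8* over Colon26 cells and *Stx1a* over NM11 cells (log2 ratio 0.93) fell just short of 2-fold.

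In the list of ceramide and lipid raft genes, 3 of 5 had a level in LuM1 cells below that of Colon26 cells by 2-fold or more, while over NM11 cells 1 was higher and 1 lower. Among all genes 11.8% were lower by that much over Colon26 cells, and *Cav2* was no longer among the 3 in the authors' processed values or with the mean over probes. *Cav1* (caveolin-1) gave 703 ± 70.5 in Colon26, 225 ± 22.9 in LuM1 and 882 ± 88.3 in NM11 cells, so that LuM1 cells were 3.12-fold and 3.92-fold lower, and its other probe gave 3.43-fold and 4.35-fold. *Smpd2*, which codes for a neutral sphingomyelinase, had 167 ± 17.6 in Colon26 and 44.3 ± 6.16 in LuM1 cells and was not well above background in NM11 cells. LuM1 cells lay 3.77-fold below Colon26 cells and at least 2.26-fold above NM11 cells, though the latter log2 value of 1.18 went down to 0.48 at the lowest over the other settings. *Cav2* had a log2 ratio of LuM1 over Colon26 of -1.29 and was named after its value was seen. *Smpd3*, whose neutral sphingomyelinase has been tied to exosome budding, was not well above background in any line.

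**Figure D4:**
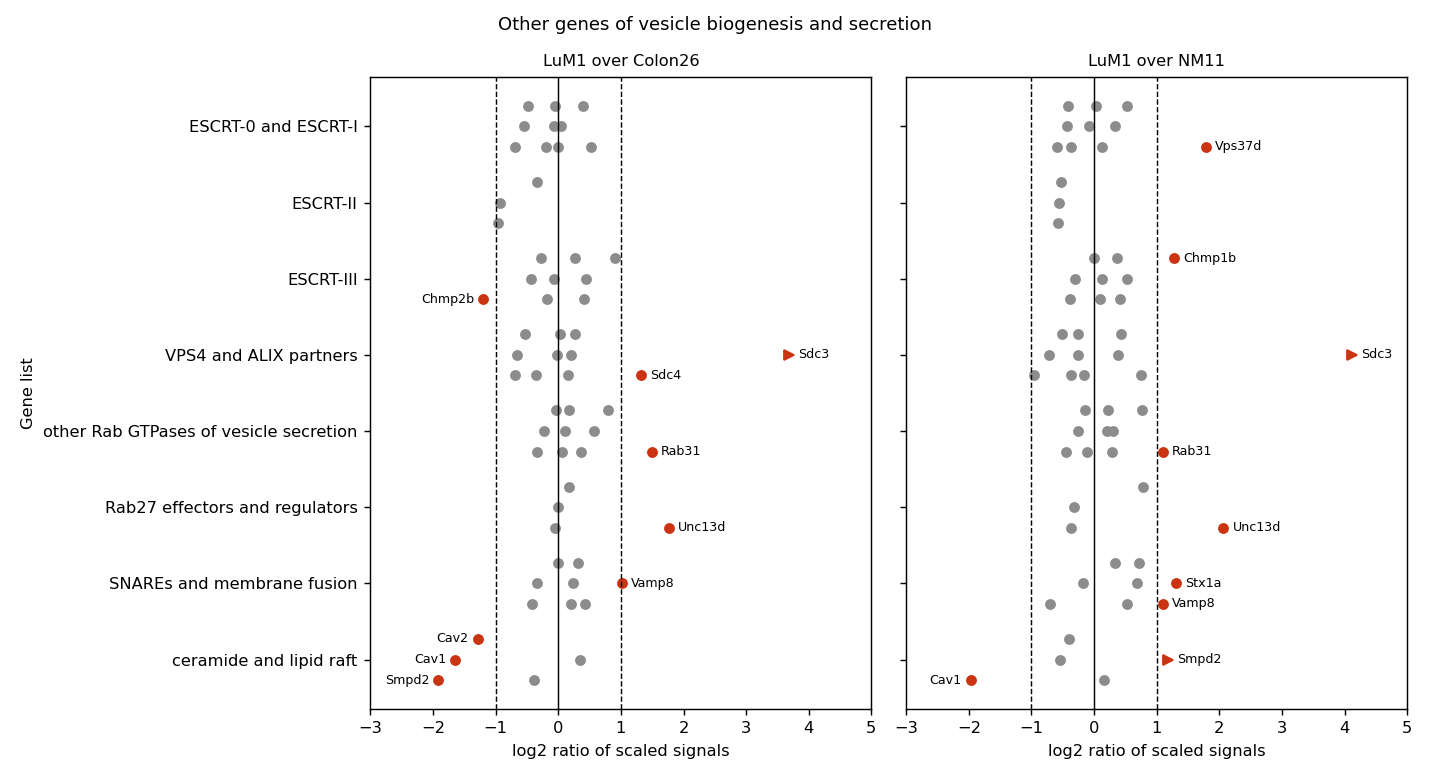
Log2 ratios of scaled signals of 69 further genes of vesicle biogenesis and secretion by list, for LuM1 over Colon26 (left) and LuM1 over NM11 (right). Each point is a gene by its brightest probe, triangles are bounds, dashed lines mark 2-fold, and red points lie beyond them with their names. *Sdc3*, *Rab31*, *Unc13d* and *Vamp8* lie on the higher side and *Cav1* on the lower side in both panels, while the ESCRT lists lie mostly within 2-fold.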

How the data were processed

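Gene expression was measured on 1 single-colour Agilent mouse array per cell line (3 arrays). The authors deposited intensity values per spot from Agilent Feature Extraction 11.5.1.1, background-subtracted and detrended without scaling between arrays, with flags of 0 or 1. The other intensity values that the authors deposited equal these times 1 constant per array, which was 0.654, 0.829 and 0.706 in the order Colon26, LuM1, NM11, by a normalization not given in the sources used here.

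Control and outlier spots were left out, repeated spots were averaged, and each array was scaled to the 75th percentile of its spots. Probes (58.3% of 56605) were named through RefSeq accessions of GRCm38.p6. Since the arrays were designed on mm9, no probe coordinates are given. A gene was read by its brightest probe, and all probes of the 10 genes are shown. A probe not well above background on 1 of 2 arrays gave a bound, set against the dimmest signal that passed the flag there, or against the probe's own signal if brighter. A bound counted as a call where it passed 2-fold. The script was checked on simulated arrays with planted changes well beyond 2-fold in genes far above background. Smaller changes, and changes near background, were not covered by that check.

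The genes and lists were chosen with earlier results of these data known. Besides the 10 genes, those of the lists past 2-fold in at least 2 of 3 comparisons were named, with the 3 genes nearest to the member of widest range. The alternatives were 4 other scalings, quantile normalization, normexp (offset 50), the authors' processed values, 2 detection rules, 2 probe rules, outlier spots kept, and thresholds of 1.5-fold and 4-fold. Scaling to *Hprt* rested on 1 probe and scaling to E1A on 7. Protein sequences were not analysed here. Python 3.11.15 with numpy 2.4.6 and pandas 2.3.3, and R 4.3.3 with limma 3.58.1 were used.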

Additional observations from a re-analysis of the deposited data

How the results depend on the processing

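With 1 array per line, leaving out a replicate was not possible, and the scanner error was the measure of movement. No paired analysis was possible because each line has 1 array. Of 310 recomputed log2 ratios of the 10 genes, 249 stayed within the scanner error of the value reported, 61 did not, and 21 changed sign. All 26 values reported were below 2-fold. Those of *Rab27b* among them are bounds, which leave differences above 2-fold possible. Of the 26 values, 16 kept their sign under every setting run.

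Counts of the 10 genes past the limit were 0 in each comparison as reported. With the looser detection rule, and likewise without a filter on dim probes, 2 were lower in LuM1 than in Colon26 cells (*Rab27a*, *Rab27b*), 1 was lower in LuM1 than in NM11 cells (*Rab27b*) and 1 was lower in NM11 than in Colon26 cells (*Rab27a*), by construction because dim spots then count. Scaled to *Hprt*, 1 was higher in LuM1 than in NM11 cells (*Flot1*). At 1.5-fold, 1 was lower in LuM1 than in Colon26 cells (*Pdcd6ip*), 2 were lower than in NM11 cells (*Pdcd6ip*, *Rab27b*) and 1 was higher in NM11 than in Colon26 cells (*Sdcbp*). At 4-fold all counts were 0.

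For the 69 further genes, alternatives were added after seeing the data. In LuM1 over Colon26, 3 were higher after normexp and 8 in the authors' processed values, where 2 were lower. In LuM1 over NM11, 18 were higher when scaled to *Hprt* and 13 each when scaled to E1A or in the authors' processed values, and 2 were lower with either detection rule. In NM11 over Colon26, 2 were higher with either detection rule, and 13 were lower when scaled to *Hprt*, 9 when scaled to E1A, and 3 each after quantile normalization and normexp. The cause was not tested. Signal over background limits what can be said of *Rab27a* and *Rab27b*.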
